A study of Danio rerio with 10 samples.

Results

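Insulin-like growth factor (IGF) genes were examined in RNA from zebrafish hearts of fish kept in hypoxia or normoxia. Probe sets were taken where the array's probe-to-gene table gave exactly 1 gene symbol and that symbol began with igf1, igf2 or igfbp. This gave 17 of the 15617 probe sets on the array, standing for 12 of its 8793 genes with such a symbol: the ligands igf1, igf2a and igf2b, the receptors igf1ra and igf1rb, the binding proteins igfbp1a, igfbp1b, igfbp2a, igfbp3 and igfbp5b, and igf2bp1 and igf2bp3. The last pair match by name alone, since they encode RNA-binding proteins named for binding the igf2 mRNA, not proteins that bind the hormone. Where a gene has 2 probe sets they are called (a) and (b). They share a target and are not independent measurements of the condition.

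The labels give 10 arrays of biotin-labelled total RNA, 5 per group, from 4 biological samples per group and 1 technical repeat, array 5, of biological sample 2 of each group. The labels do not state the oxygen level, the length of exposure, or the strain, age and sex of the fish. Hypoxia 1 and 4, and normoxia 3 and 4, differed by no more than the less alike of the technical pairs (SD of log2 differences 0.112 and 0.0927 against 0.151), so each pair was averaged and counted as 1 sample. Repeats were averaged with their partners. Each group then held 3 samples, named hypoxia 1/4, hypoxia 2 and hypoxia 3, and normoxia 1, normoxia 2 and normoxia 3/4. Nothing in the labels says how many hearts or fish stand behind a sample, so p-values measure the spread between these samples.

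IGF1 and IGF2 are secreted hormones that promote growth and survival through the IGF1 receptor, a tyrosine kinase that signals through PI3 kinase, AKT and the TOR kinase. IGF binding proteins hold the hormones in blood and tissue and control how much of them reaches the receptor. Zebrafish carry duplicates of several of these genes, such as igfbp1a and igfbp1b. In zebrafish embryos igfbp1 is known as a gene that low oxygen induces through HIF-1, and its product slows growth and development by binding IGFs. No probe, transcript or protein sequence is printed here.

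Values are quantile normalized intensities, and log2 values are log2 of the intensity plus 1. An array was counted as above background for a gene if its intensity was over 27.0, which is 2 times the background SD of 13.5 estimated from values below 0. Of the 17 probe sets, 8 were above this bound on all 10 arrays and 7 on no array. The dimmest 30% of all probe sets, by mean log2 intensity, were not tested. That filter passed 10 of the 17, which stand for 8 genes: all 7 probe sets of binding proteins and all 3 of ligands, but 0 of 3 of receptors and 0 of 4 of igf2bp1 and igf2bp3. Different probe sets bind with different strength, so their levels are not set against each other. The labelled tissue was checked against heart genes. Of 11 cardiomyocyte marker genes with a probe set, 9 were above the bound on all 10 arrays, including myl7 at 6924 to 7538, while gata4 and tbx5a were above it on none.

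The gene igfbp1a was higher in hypoxia at both of its probe sets, by 2.99-fold and 2.82-fold, and was the 1 gene of the family past the threshold. The ligand gene igf2a was 2.18-fold higher by its means, with counted samples of the groups that did not overlap, and did not pass (adjusted p = 0.117 from limma). The mean of igfbp5b was lower in hypoxia by 0.59 log2 and did not pass either (adjusted p = 0.21 from limma). Differences of igf2b and igfbp3 lay between -0.13 and 0.12 log2 and did not pass, and both receptor genes were not above background on any array. The 2 called probe sets, both higher, are 2 of the 10 tested. Over all 10851 probe sets tested, limma called 3.97% in either direction, 0.958% higher and 3.01% lower in hypoxia. Of these calls 75.9% were lower, against 90.5% with median scaling and 58.8% with the deposited values. Groups did not overlap, with hypoxia above, for 3 of the 10, igf2a and both of igfbp1a, against 9.94% of all probe sets tested, and with hypoxia below for 0 of the 10 against 17.3%, which makes 27.2% in either direction.

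**Figure D1:**
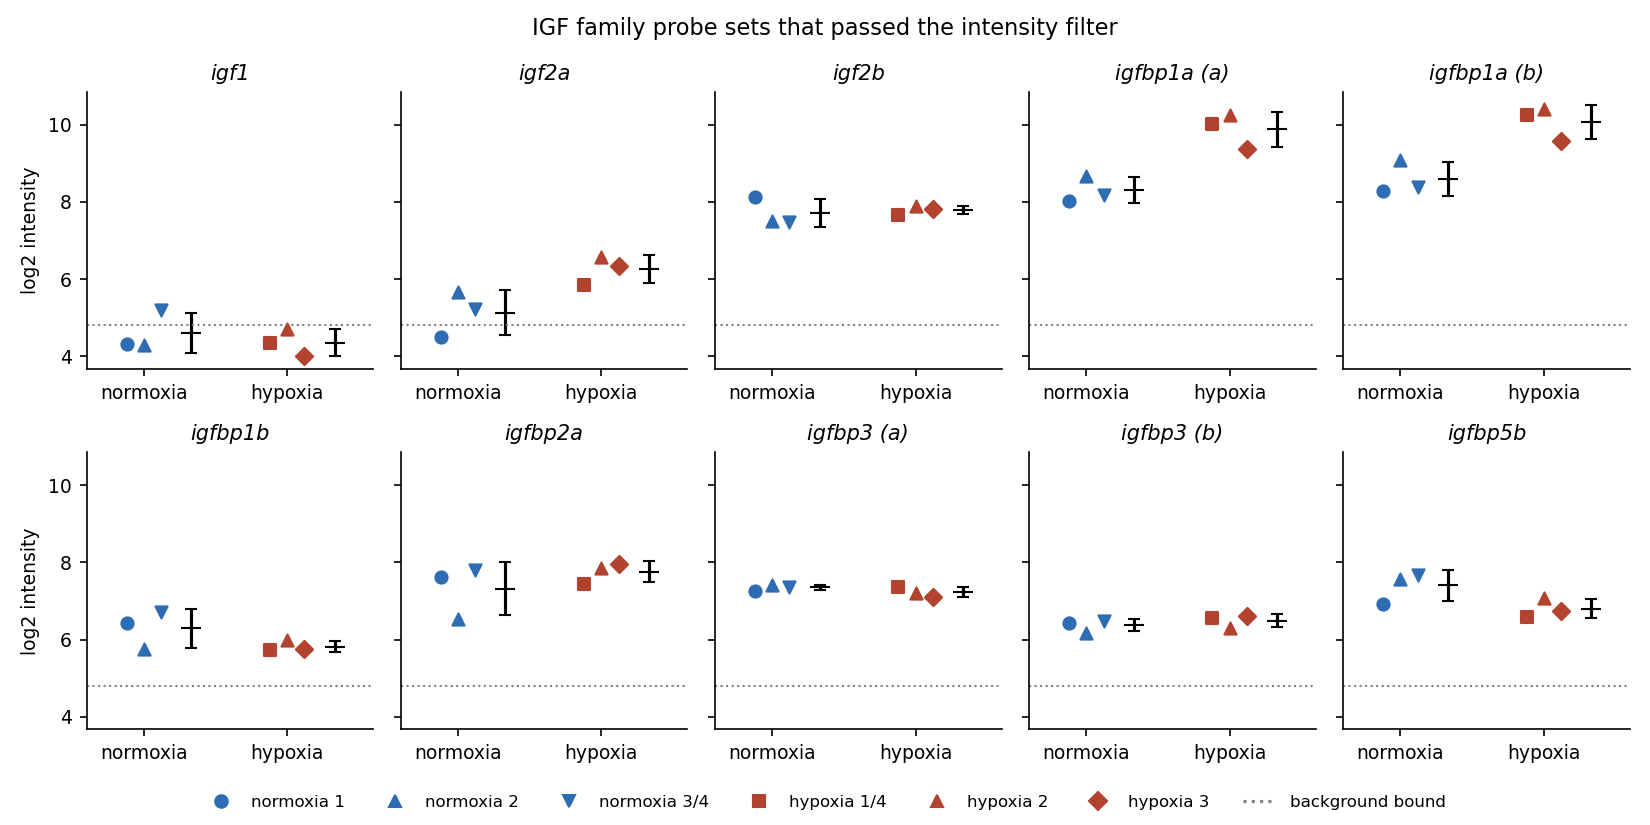
Log2 intensity of the 10 IGF family probe sets that passed the intensity filter, 1 panel each, with 1 point per counted sample (3 per group), the group mean ± SD in black and the background bound of 4.81 as a dotted line. Both igfbp1a panels and that of igf2a show all hypoxia points above all normoxia points, while the groups overlap in the other 7 panels.

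Among the ligands, igf2a encodes 1 of the 2 IGF2 hormones of zebrafish. Its log2 intensity was 5.86, 6.57 and 6.34 in hypoxia 1/4, 2 and 3 and 4.51, 5.66 and 5.23 in normoxia 1, 2 and 3/4. All hypoxia samples were above all normoxia samples, although the gap between hypoxia 1/4 and normoxia 2 was small and normoxia 1 was below the background bound. By single arrays the groups overlapped, as hypoxia array 4 read 53.8 and normoxia array 5 read 55.6. The means were 6.26 ± 0.36 and 5.13 ± 0.58 (SD, n = 3), and the difference was 1.12 log2, with a 95% interval of 0.35 to 1.90 before correction over all probe sets. It was 1.38, 0.83 and 0.51 in hybridization runs 1, 2 and 3, which share counted samples and are not independent repeats. With the 8 samples as labelled, which count the near-identical pairs as separate samples, igf2a passed at 1.0 log2 (adjusted p = 0.0475 from limma). It passed in 2 of 19 alternatives, the other being the same 8 samples with the replicate number as a block.

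Its duplicate igf2b was well above background on every array. It stood at 7.67, 7.89 and 7.81 in hypoxia and at 8.13, 7.51 and 7.48 in normoxia in the same order of samples, so that the hypoxia samples lay inside the normoxia range. The difference was 0.08 log2 (95% interval -0.37 to 0.53), which turned to -0.09 under median scaling and -0.02 with the deposited values. A test of whether the igf2a minus igf2b value differed between groups gave 1.04 log2 with all hypoxia samples above all normoxia samples, and an exact two-sided permutation p of 0.1, the smallest that 3 against 3 samples allow. As the igf2b means differed little, this value mostly restates the igf2a difference.

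The gene for igf1, the IGF that growth hormone induces in liver, was near background in these hearts. Its intensity was 15.2 to 25.4 on the 5 hypoxia arrays, not above the bound on any. In normoxia it was 16.4 to 29.3 on 4 arrays and 44.0 on array 4, and 2 of the 5 arrays exceeded the bound. The means were 4.35 ± 0.35 in hypoxia and 4.61 ± 0.52 in normoxia (log2, SD, n = 3, adjusted p = 0.712 from limma), and no fold is given because both lie below the bound.

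Receptor transcripts were not detectable at the signal over background of this array. The probe set of igf1ra read -52.5 to -20.2 over the 10 arrays, below 0 on each. Of the igf1rb probe sets, (b) also read below 0 on all arrays, from -48.2 to -3.24. The other, (a), read 6.63 to 10.9 on the hypoxia arrays and 10.1 to 20.6 on the normoxia arrays. Its 3 counted hypoxia samples were all below its 3 normoxia samples (3.16 ± 0.25 against 3.89 ± 0.31 log2, SD, n = 3), but all these values are below the bound and were not tested. A level below the bound does not show that the receptor genes are silent.

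**Figure D2:**
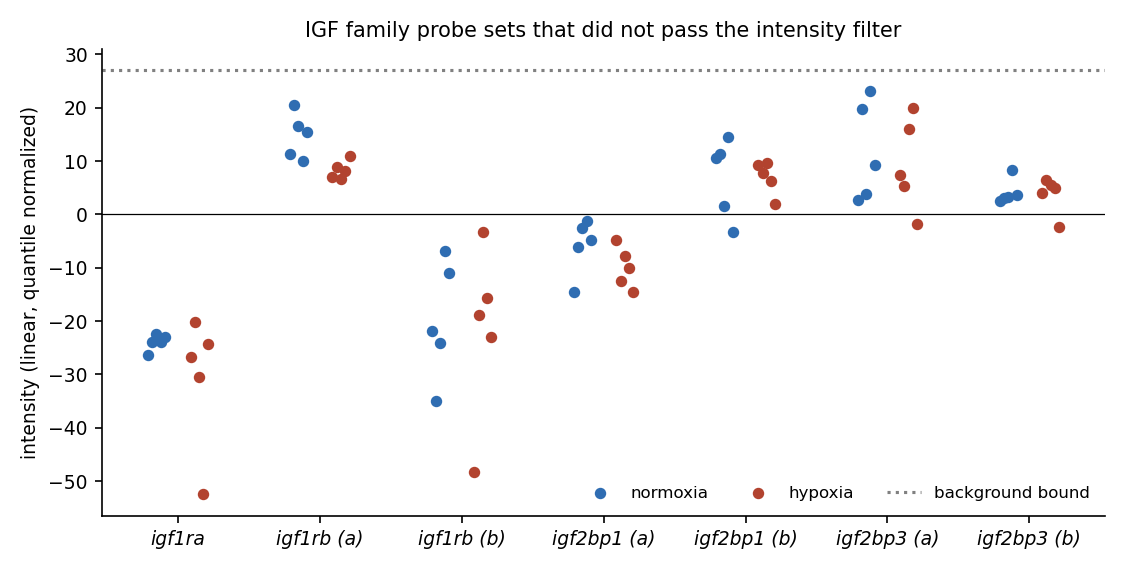
Linear quantile normalized intensity of the 7 IGF family probe sets that did not pass the filter, with 1 point per array (5 per group) and the background bound of 27.0 as a dotted line. Every point lies below the bound, and igf1ra, igf1rb (b) and igf2bp1 (a) lie below 0 on all 10 arrays.

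The igfbp1a gene had the largest differences between groups among the tested members. At probe set (b), the brighter of its pair, the hypoxia arrays 1 to 5 read 1239, 1341, 767, 1197 and 1372, and the normoxia arrays 309, 536, 338, 333 and 552. The lowest hypoxia array was above the highest normoxia array. Hypoxia 3 was the low array of its group, and arrays 2 and 5, which share RNA, were the high ones of theirs. At probe set (a) the hypoxia arrays read 1016, 1250.1, 666, 1049 and 1178, and the normoxia arrays 260.0, 362, 288, 291 and 463, with the same arrays low and high. The repeat arrays differed from their partners by 0.03 log2 in hypoxia and 0.04 in normoxia at (b), and by 0.09 and 0.36 at (a).

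Over the counted samples, igfbp1a (b) had a log2 intensity of 10.25, 10.41 and 9.59 in hypoxia 1/4, 2 and 3, and of 8.28, 9.09 and 8.39 in normoxia 1, 2 and 3/4. The means were 10.08 ± 0.44 and 8.59 ± 0.44 (SD, n = 3). The difference was 1.49 ± 0.28 log2 (SE), a 2.82-fold rise with a 95% interval of 1.77 to 4.48 (adjusted p = 0.0409 from limma). Probe set (a) gave 9.88 ± 0.45 and 8.30 ± 0.34 (SD, n = 3) and a rise of 1.58 ± 0.26 log2 (SE), with a fold interval of 1.96 to 4.58 (adjusted p = 0.0285 from limma). Within the hybridization runs 1, 2 and 3 the differences were 1.66, 1.51 and 1.31 at (b) and 1.87, 1.52 and 1.34 at (a). The runs are not independent, since hypoxia 1/4 has an array in each of runs 1 and 2. Run 3 is the technical repeats alone, whose wash records end in an abort, and without them (b) gave 1.5 log2 (adjusted p = 0.0378 from limma). Of the 104 probe sets called higher, 24 had a larger difference than igfbp1a (b), among them igfbp1a (a). The median difference of all 104 was 0.89 log2. The call rests on all 6 samples together: leaving out any 1 of them kept the difference at (b) between 1.33 and 1.75 log2 but raised the adjusted p in limma to between 0.0535 and 0.107, each in a fit to fewer samples.

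**Figure D3:**
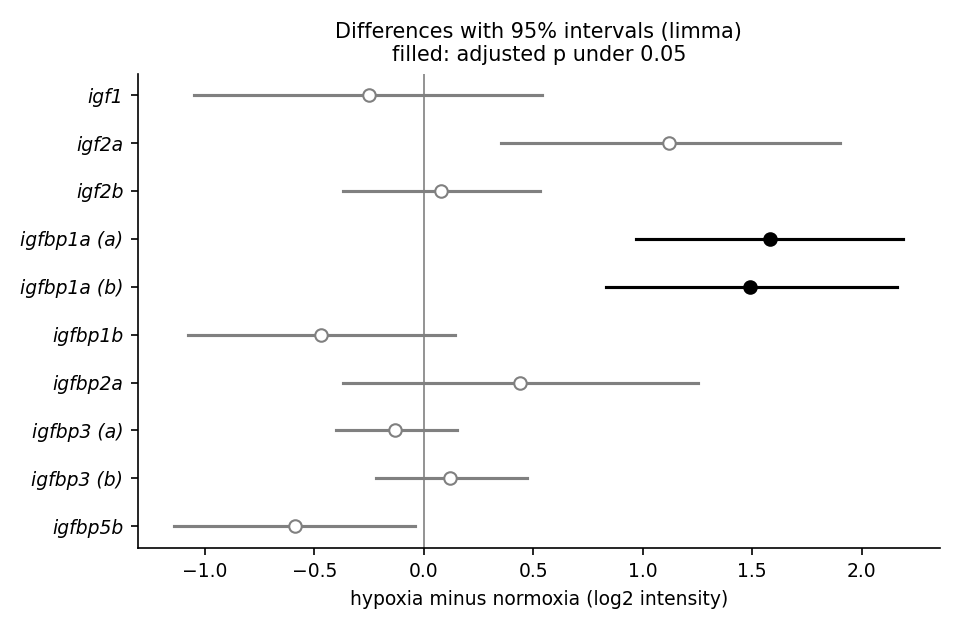
Hypoxia minus normoxia difference in log2 intensity for the 10 tested probe sets, with 95% intervals from limma that are not corrected for the number of probe sets. The 2 filled points, both igfbp1a, passed at adjusted p under 0.05. The intervals of igf2a and igfbp5b exclude 0 without passing.

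The duplicate igfbp1b did not share this direction. It read 5.72, 6.0 and 5.76 log2 in hypoxia and 6.43, 5.75 and 6.71 in normoxia, where normoxia 2 lay within the hypoxia range and the other two lay above it. Its difference was -0.47 log2 (95% interval -1.08 to 0.14, adjusted p = 0.346 from limma), and -0.03, -1.03 and -0.04 in runs 1, 2 and 3. The igfbp1a minus igfbp1b value was 4.26 ± 0.38 in hypoxia and 2.29 ± 0.92 in normoxia (SD, n = 3). It was higher in 3 of 3 hypoxia samples than in any normoxia sample (exact two-sided permutation p = 0.1, the smallest possible, and 0.1 after adjustment over the 3 such comparisons made). The group difference of 1.96 log2 includes the 1.49 log2 of igfbp1a (b) itself. It mostly restates that difference and is not further evidence of it.

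The gene igfbp3 encodes a major carrier of IGFs in mammalian blood. In the RefSeq gene table of zebrafish it is the protein-coding neighbour of igfbp1a. Its probe set (a) read 7.37, 7.20 and 7.10 log2 in hypoxia and 7.27, 7.41 and 7.37 in normoxia. Probe set (b) read 6.56, 6.31 and 6.60 and 6.44, 6.18 and 6.48. Groups overlapped at both, and the differences were -0.13 log2 (95% interval -0.40 to 0.15) and 0.12 log2 (95% interval -0.22 to 0.47), neither past the threshold (adjusted p = 0.576 and 0.671 from limma). Within runs 1, 2 and 3 they were -0.06, -0.13 and -0.22 at (a) and 0.20, 0.11 and -0.05 at (b). The highest of these bounds is below the lower bound of igfbp1a at either probe set. The igfbp1a minus igfbp3 value was 1.62 log2 higher in hypoxia, with the groups apart (exact two-sided permutation p = 0.1, the smallest possible). As igfbp3 itself differed little, this value mostly restates the igfbp1a difference and is not further evidence of it.

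Of the 2 remaining binding protein genes, igfbp5b was lower by its means and igfbp2a higher, and neither passed. The protein IGFBP5 binds IGFs and attaches to extracellular matrix. Its gene igfbp5b read 6.59, 7.08 and 6.74 log2 in hypoxia and 6.93, 7.58 and 7.67 in normoxia, and the groups overlapped because normoxia 1 was below hypoxia 2. The means were 6.80 ± 0.25 and 7.40 ± 0.41 (SD, n = 3), with differences of -0.47, -0.98 and -0.47 in runs 1, 2 and 3. With the 8 samples as labelled, which count the near-identical pairs as separate samples, it passed at -0.71 log2 (adjusted p = 0.0458 from limma). It passed in 2 of 19 alternatives, the other being the same 8 samples with the replicate number as a block. IGFBP2 is a circulating binding protein. Its gene igfbp2a read 7.44, 7.86 and 7.96 in hypoxia and 7.62, 6.53 and 7.80 in normoxia, where normoxia 2 alone was low. The repeat of normoxia 2 was low as well, at 98.6 intensity units against 84.2 for normoxia 2 and 196 to 232 for the other normoxia arrays. The difference was 0.44 log2 (95% interval -0.37 to 1.25), and 0.04 without normoxia 2. It was 0.62, -0.10 and 1.27 in runs 1, 2 and 3.

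The RNA-binding protein genes igf2bp1 and igf2bp3 were not above background on any array. Their probe sets read -14.6 to -1.30 and -3.34 to 14.5 for igf2bp1 and -1.87 to 23.2 and -2.37 to 8.38 for igf2bp3. In vertebrates these genes are known mostly from embryos, germ cells and tumours.

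Markers of liver, like igfbp1a, were higher in hypoxia by their means in these samples, and igfbp1 is known as a liver gene. All 26 liver marker genes with a probe set passed the filter, all 26 were higher in hypoxia by their means, and limma called 2 of them, hpxa and hp, both higher. Over the 6808 genes tested, each by its brightest probe set, limma called 4.54%, with 1.09% higher and 3.45% lower. Of the 26 liver genes, 20 had an unadjusted p under 0.05, against 2298 of all 10851 probe sets tested. The hypoxia group lay entirely above the normoxia group for 19 of the 26, against 9.94% of all probe sets tested. The summed intensity of the 26 was 22838 to 41487 on the hypoxia arrays and 3583 to 18918 on the normoxia arrays. The liver fatty acid binding protein gene fabp10a was above the bound on all 10 arrays, at 145 to 3575. The mean log2 intensity of the list was 8.69, 9.79 and 9.41 in hypoxia 1/4, 2 and 3 and 5.11, 7.59 and 8.34 in normoxia 1, 2 and 3/4. The list spanned 3.23 log2 between normoxia samples, where igfbp1a (b) spanned 0.82. Hypoxia 1/4 and normoxia 3/4, the nearest samples of the groups on the liver list, differed by 0.35 log2 on it and by 1.86 at igfbp1a (b). The nearest samples of the groups at igfbp1a (b) were hypoxia 3 and normoxia 2. They differed by 0.49 log2 there and stood further apart, at 9.41 and 7.59, on the liver list. In run 2 the list differed by 0.72 log2 and igfbp1a (b) by 1.51, while in runs 1 and 3 the list differed by 2.88 and 2.21 and igfbp1a (b) by 1.66 and 1.31. The part of liver RNA in the igfbp1a and igf2a results was not tested. In whole-tissue RNA, a change in the number of cells of a type and a change in RNA per cell cannot be told apart.

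**Figure D4:**
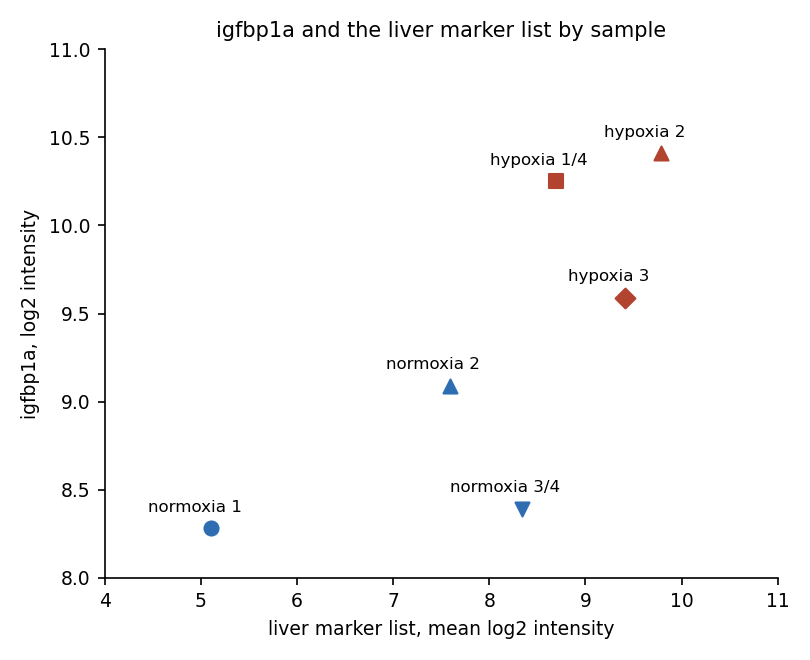
Log2 intensity of igfbp1a (b) against the mean log2 intensity of the 26 liver marker genes, with 1 point per counted sample (3 per group). The hypoxia samples are highest on both axes. Normoxia 1 and normoxia 3/4 differ by 3.23 on the liver axis and lie at 8.28 and 8.39 for igfbp1a. Hypoxia 3 and normoxia 2 differ by 0.49 for igfbp1a and lie at 9.41 and 7.59 on the liver axis.

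For egg and yolk markers the summed intensity of the hypoxia arrays, 11174 to 14571, lay inside that of the normoxia arrays, 1123 to 16607. That sum comes mostly from vtg2, vtg3 and vtg4, genes for yolk proteins, which read up to 8412, 2927 and 5318. It therefore says little of the egg genes of the list. The vtg genes were lowest on normoxia array 1, at 603, 68.2 and 346, the sample in which the liver list was lowest too. The egg genes zp3a.1, zp3b, buc and dazl were above the bound on 3 of 5 hypoxia and 0 of 5 normoxia arrays. By the same count zar1 was above the bound on 3 hypoxia and 2 normoxia arrays, ccnb1 on all 10, and bmp15 on 1 hypoxia array. These genes were still highest on hypoxia arrays 1, 3 and 4, which the vtg genes were not. There zar1 read 91.9, 166 and 78.8, ccnb1 150.5, 438 and 185, and the dim bmp15 13.9, 37.6 and 15.9. On the other arrays they read at most 30.1, 66.4 and 7.17. On hypoxia arrays 1, 3 and 4 zp3a.1, which did not pass the filter, read 96.6, 353 and 92.9. It read below 0 on every other array. Of 8 tested genes of that list, 8 were higher in hypoxia by their means and 0 were called by limma. An unadjusted p under 0.05 was seen for 2 of the 8, against 2298 of all 10851 probe sets tested. Over all genes tested, limma called 1.09% higher and 3.45% lower in hypoxia, which are the shares beside the counts of these lists. Red blood cell markers had 7 of 15 genes called, all higher. The hypoxia group lay entirely above the normoxia group for 11 of the 15, against 9.94% of all probe sets tested. Summed intensities of the list were 25173 to 30873 on the hypoxia arrays and 19488 to 21042 on the normoxia arrays. Cardiomyocyte markers lay the other way, with 3 of 9 tested genes called, myh7, ttn.2 and atp2a2a, all lower, and with the hypoxia group entirely below the normoxia group for 6 of 9, against 17.3% of all probe sets tested. Their summed intensities were 37748 to 39736 in hypoxia and 41185 to 43694 in normoxia. Of 9 tested gill and skin epithelium genes, 2 were called, both higher. The list as a whole was mixed, with 5 of 9 differences above 0, a median of 0.03 log2 and a lowest difference of -0.73. The epithelial adhesion gene epcam rose by 2.88 log2 (adjusted p = 0.0268 from limma), and elf3, an epithelial transcription factor gene above the bound on 0 of 5 normoxia arrays, was at least 2.83-fold higher (adjusted p = 0.0394 from limma). The summed intensities of that list overlapped, at 5517 to 7654 in hypoxia and 6275 to 7347 in normoxia. Of the remaining lists, exocrine pancreas had 1 of 6 tested genes called, lower, while skeletal muscle, leukocyte, endothelium, and epicardium and fibroblast had 0 called by limma and 0 to 2 genes each at an unadjusted p under 0.05. The part of these cell types in the igfbp1a result was not tested.

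Around the family, 85 genes of the wider pathway had been listed, of which 43 had a probe set and 38 passed the filter. Limma called 2 higher and 2 lower among the 38, against 1.09% higher and 3.45% lower of all genes tested. The split was 0 higher and 3 lower with median scaling, and 3 higher and 1 lower with cyclic loess. The median difference of the 38 was -0.03 log2, against -0.05 for all probe sets tested. The direction was mixed in the branch below the receptor: 5 of 10 adaptor and PI3 kinase genes and 8 of 17 genes of the FOXO, GSK3 and TOR branch had differences above 0.

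Both called rises were in the TOR branch. The gene deptor, whose product binds and inhibits the TOR kinase in mammals, read 8.12, 8.19 and 8.24 log2 in hypoxia and 7.46, 7.57 and 7.54 in normoxia. It rose by 0.66 log2 with an SE of 0.09 (limma adjusted p = 0.0263). The gene eif4ebp3l, of the family of translation repressors that TOR phosphorylates, read 10.18, 10.36 and 10.43 in hypoxia and 9.94, 9.60 and 9.75 in normoxia. It rose by 0.56 log2 with an SE of 0.11 (limma adjusted p = 0.0431), and its smallest value over the alternatives was 0.27 log2, with median scaling. Other genes of that family, eif4ebp1 and eif4ebp2, did not rise. They differed by -0.09 and -0.15 log2 (adjusted p = 0.633 and 0.383 from limma).

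Both called falls encode inhibitors of receptor signalling. The adaptor gene grb10a, whose mammalian counterpart binds and inhibits insulin and IGF1 receptors, read 8.38, 8.39 and 8.70 log2 in hypoxia and 9.03, 9.45 and 9.11 in normoxia, a difference of -0.71 log2 with an SE of 0.15 (limma adjusted p = 0.0493). The cytokine signalling inhibitor gene socs3a read 9.75, 9.72 and 9.61 in hypoxia and 11.39, 10.88 and 10.84 in normoxia (-1.34 log2, adjusted p = 0.0168 from limma). In deptor, eif4ebp3l, grb10a and socs3a, which were named because they were called, the groups did not overlap. Of all 38 pathway genes tested, 6 had the hypoxia group entirely above and 6 entirely below. The shares over all probe sets tested were 9.94% and 17.3%.

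Upstream, the gene igfals encodes the acid-labile subunit that holds IGF and its binding protein in a larger complex in blood, and it is known from liver. It was above the bound on 3 of 5 hypoxia arrays and on 0 of 5 normoxia arrays. The groups overlapped, since hypoxia 1/4 at 4.11 log2 was below normoxia 3/4 at 4.24, both under the bound. No fold is given for igfals (measured means 5.01 in hypoxia and 3.08 log2 in normoxia, adjusted p = 0.165 from limma, not past the threshold). The growth hormone receptor gene ghra was above the bound on 3 of 10 arrays, and no difference is given because both group means, 4.11 and 4.69 log2, lie below it (adjusted p = 0.504 from limma). Of 9 genes for proteases that cut IGF binding proteins and their inhibitors, stc2a was the 1 with a probe set, at 0.33 log2 (adjusted p = 0.521 from limma).

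**Figure D5:**
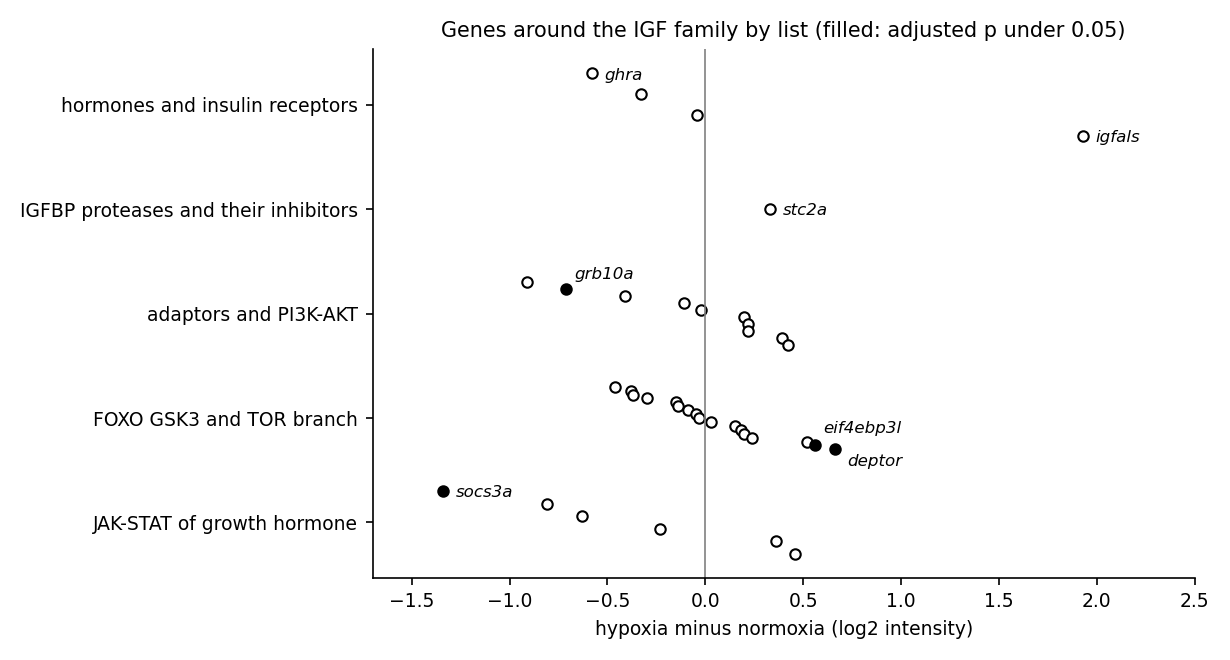
Hypoxia minus normoxia difference in log2 intensity for the 38 tested genes around the IGF family, in 5 lists, with 1 point per gene and filled points for the 4 genes at adjusted p under 0.05. Points of every list with more than 1 gene lie on both sides of 0.

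The genes whose pattern over the 6 samples was most like igfbp1a (b) were rorcb, plcd1b, blvrb, spint1b and hif1al2. Likeness was the root-mean-square difference of log2 values centred on each gene's own mean, over 7978 probe sets with 1 symbol outside the family. It was 0.34 for rorcb, a nuclear receptor gene, 0.37 for the phospholipase gene plcd1b, 0.37 for blvrb, a biliverdin reductase gene, 0.37 for the serine protease inhibitor gene spint1b and 0.38 for hif1al2. The other probe set of igfbp1a lay at 0.08. With values under the background bound raised to it, a ranking added after seeing the data, 2 of these 5 stayed among the nearest 5 of 6800 genes, blvrb at 0.37 and hif1al2 at 0.38. In that ranking plcd1b came 8th, at 0.41, while rorcb and spint1b lay at 0.67 and 0.71, so the place of the last pair among the nearest rests on values below background. The gene blvrb, which is also on the red blood cell list, read 10.38, 9.94 and 9.98 log2 in hypoxia 1/4, 2 and 3 and 9.01, 9.08 and 8.73 in normoxia 1, 2 and 3/4. The gene hif1al2 read 9.49, 8.86 and 9.05 and 7.34, 7.89 and 7.92. Both had their highest value in hypoxia 1/4, where igfbp1a was highest in hypoxia 2. Neither rorcb nor spint1b was above the bound on any normoxia array, and each was above it on 4 of 5 hypoxia arrays. Their mean hypoxia levels were therefore at least 1.25-fold and at least 1.26-fold higher (adjusted p = 0.0432 and 0.0552 from limma). This minimum is for the means and does not hold for each hypoxia array. The gene plcd1b was above the bound on 5 of 5 hypoxia and 2 of 5 normoxia arrays and did not pass (means 5.86 and 4.65 log2, adjusted p = 0.0937 from limma). All 5 genes were picked in these same samples for likeness to igfbp1a, which favours genes higher in hypoxia. Their rises and adjusted p-values are therefore not independent evidence of a change with hypoxia.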

How the data were processed

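The deposited table holds 1 intensity per probe set and array, on a linear scale with 7.86 to 10.1% of values at or below 0 and array medians of 36.2 to 51.6. The software the authors used to make it is not given in the sources used here. Hybridization runs (3) were read from the deposited array records. Run 1 holds arrays 1 and 2 of both groups, run 2 arrays 3 and 4, and run 3 array 5. Differences within runs are not independent repeats. Hypoxia 1/4 has arrays in runs 1 and 2, and sample 2 of each group has arrays in runs 1 and 3. The wash records of array 5 end in an abort.

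Intensities were quantile normalized, 1 was added, values under 1 were set to 1 and log2 was taken, since adding 1 alone cannot handle negative values. The 115 control probe sets and the lowest 30% of mean log2 (under 4.02) were left out, which left 10851. Groups were compared in limma 3.58.1 under R 4.3.3 (lmFit, eBayes with an intensity trend, two-sided, Benjamini-Hochberg adjusted p under 0.05 over the 10851), which was tested on simulated data. Single within-sample differences used an exact permutation test in scipy 1.17.1. The number of arrays limits the precision. Probe sets had 1 symbol in 10802 cases, several in 135 and none in 4680. All 12 member genes matched the RefSeq table.

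Members, lists and tests were chosen with earlier results of these data known. Every member is named, as are the called genes of each pathway list or else its 2 largest differences, and the 5 genes most like igfbp1a; marker genes were named after their values were seen. A gene with several probe sets is represented in lists by its brightest.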

Additional observations from a re-analysis of the deposited data

How the results depend on the processing

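The size of the igfbp1a rise changed little between settings, but its call did. At probe set (b) all 19 alternatives gave 1.25 to 1.75 log2, and 9 passed (adjusted p = 0.0014 to 0.111 over the 19, from limma). The lowest adjusted p-values in limma, 0.0014 to 0.00945, came from fits to the 8 labelled samples or the 10 unaveraged arrays. Such fits use more columns than the 6 counted samples. Passes that kept the 6 counted samples lay at 0.0315 to 0.0497. It did not pass with the deposited values (1.33), with no filter (1.49), with low values raised to the background bound (1.49), with no intensity trend (1.49), or without any 1 sample (1.33 to 1.75).

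Family probe sets called, 2 in the main setting, numbered 0 with the deposited values, no filter, the background bound or no trend, and 0 without any 1 sample. They numbered 4 with 8 samples as labelled and 4 with the replicate block, igf2a and igfbp5b being added. Pathway genes called, 4 in the main setting (2 lower), numbered 3 with median scaling (3 lower), 4 with cyclic loess (1 lower), 1 with the deposited values, 2 with no filter, 2 with the bound, 0 with no trend, 8 as labelled, 7 with the 10 arrays unaveraged and the counted sample as a random effect, 7 with the replicate block, and 0 to 1 without any 1 sample. Calls over all probe sets, 431 in the main setting with 75.9% lower, numbered 102 with the deposited values (58.8% lower), 789 with median scaling (90.5%), 171 with no filter, 1390 as labelled, 1013 with the 10 arrays unaveraged, 870 when the run was added as a block, 1062 with the replicate block and 2 with no trend. Without any 1 sample they numbered 1 to 204, with 1 without hypoxia 3 and 28 without normoxia 1. In the settings with 0 family calls, 3 to 4 family probe sets had an unadjusted p under 0.05, against 4 of 10 in the main setting. Over all probe sets tested, 2298 of 10851 had one in the main setting. Of the 38 pathway genes, 9 had one with no trend and 12 without hypoxia 3, against 2179 and 1737 of the 10851.

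Same-numbered arrays of the groups share a hybridization run, but runs 1 and 2 each hold 2 numbers, and the numbers were not taken to pair the samples. The correlation of their deviations was 0.18, 0.104, 0.0832 and -0.0977 for numbers 1 to 4, and the labels name no pairing.

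Directions turned for igf2b (-0.02 with the deposited values, -0.09 with median scaling, -0.03 to 0.29 without any 1 sample) and for igf1 (-0.43 to 0.05 without any 1 sample, 0.05 without normoxia 3/4), and within single runs for igf2b (-0.02 in run 1), igfbp2a (-0.10 in run 2), igfbp3 (b) (-0.05 in run 3) and igf1 (0.26, -1.16 and 0.60 in runs 1, 2 and 3, all near background). The median over all probe sets moved from -0.05 to -0.14 under median scaling and 0.02 under cyclic loess. Of the called pathway genes, socs3a passed in 17 of 19 alternatives, deptor in 10, eif4ebp3l in 8 and grb10a in 7. The causes of these changes were not tested. By their definition, the settings without a sample hold fewer samples and the setting with no filter tests more probe sets. With the lowest 50% left out, igf1, igfals, ghra, stc2a, rorcb, plcd1b and spint1b have no value.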
